A study of Mus musculus with 3 samples.

Results

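A set of 10 genes that make, move and clear adenosine or turn the methyl cycle was followed in mouse embryonic stem cells treated with the adenosine analogue tubercidin. They were taken by symbol (Slc29a1, Adk, Ada, Pnp, Adsl, Mat2a, Mat2b, Ahcy, Ahcyl1 and Mtap), and all 10 were found among the 32285 genes listed for each library. The cells were of the E14 line, an established line on a 129/Ola background, kept in serum with leukaemia inhibitory factor. The tub_3h and tub_6h groups received 10 uM tubercidin for 3 h and 6 h, and the control group received the solvent DMSO for 6 h, so that no solvent control of 3 h stands beside the shorter exposure. Each group was 1 droplet library of single cells, of 2031 cells for the control, 2365 for tub_3h and 2926 for tub_6h.

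Adenosine enters and leaves cells through nucleoside transporters, is phosphorylated to AMP by adenosine kinase, or is deaminated to inosine by adenosine deaminase. The methyl cycle is a second source of adenosine: S-adenosylmethionine (SAM) made from methionine and ATP gives up its methyl group, and the product, S-adenosylhomocysteine, is split into homocysteine and adenosine. Tubercidin is a substrate of adenosine kinase, which turns it into nucleotides inside the cell, and it resists adenosine deaminase. The other genes here work beside these steps, as regulatory partner, relative or salvage enzyme.

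Levels are sums over the cells of a library of unique molecular identifiers (UMIs), tags that count captured RNA molecules, scaled to 1000000 UMIs of that library (CPM). Counts come from the end of the transcript and were not divided by length, so levels are compared between libraries and not between genes. Brackets give exact 95% Poisson intervals for counting error. The 3 h and 6 h comparisons share the control library. With 1 library per group the spread between cultures is unknown, and no difference was tested. A gene is called higher or lower by size alone, at 1.5-fold or more on the scale of CPM + 1, among genes whose 3 libraries averaged 10 CPM or more. The treated cells were shallower: the median control cell held 48452 UMIs against 11877 after 3 h and 8004.5 after 6 h, and less RNA per cell cannot be told apart from shallower sequencing. All 8 stem cell markers (Pou5f1, Sox2, Nanog, Zfp42, Esrrb, Dppa5a, Tdgf1 and Utf1) were detected in each library, with a summed level between 3785 and 5178 CPM, most of it Dppa5a. Single markers differed between libraries: Sox2 was at 205 CPM in the control against 80.6 and 81.1 CPM in the treated libraries, Zfp42 at 712 against 437 and 455 CPM, and Esrrb at 102 against 130 and 193 CPM. What part this has in the results below was not tested. Summed markers of other cell types stayed between 6.19 and 9.76 CPM for primitive endoderm (5 genes), 34.4 and 39.4 CPM for trophoblast (5, mostly Krt8 and Tfap2c), 0.829 and 1.94 CPM for fibroblasts (5) and 0 and 0.891 CPM for 2-cell-like cells (5). Of these 20 markers, 5 had no UMI in the control (Postn and all 2-cell-like genes but Zscan4d), 7 had none in the 3 h library (all 2-cell-like genes, Col3a1 and Postn) and 5 had none in the 6 h library (Sox17, Hand1, Col1a2, Zscan4c and Zscan4f). Any pair of libraries shared 1 cell barcode.

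The clearest differences lay at the entry and at the methyl donor. Slc29a1, the equilibrative nucleoside transporter, was 2.02-fold higher at 3 h than in the control and 1.39-fold higher at 6 h, while Mat2a, the enzyme that makes SAM, was 1.83-fold and 1.82-fold lower. Mat2b, which encodes the regulatory partner of the Mat2a enzyme, was lower by 1.21-fold after 3 h and 1.65-fold after 6 h. Its 3 h ratio was that of a middling gene, as 49.2% of genes that averaged 10 CPM or more had a lower one. Adk, the kinase that activates tubercidin, was 1.34-fold and 1.19-fold lower, which was less than Mat2a at both times.

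The mean of 10 CPM was passed by 9 of the 10 genes, and Ahcy missed it narrowly at 9.95 CPM. At 3 h 1 of these 9 was called higher (Slc29a1) and 1 lower (Mat2a), against 3.61% higher and 24.5% lower of the 7884 genes that passed. At 6 h 0 were higher and 2 lower (Mat2a and Mat2b), against 7.06% and 16.9%. Slc29a1 at 3 h was also past 2-fold, as were 0.888% of genes in that direction. The shares among 9 genes are too coarse to set apart from these backgrounds. The median log2 ratio of the 9 was -0.11 at 3 h and -0.25 at 6 h, beside -0.27 and -0.12 over the 7884 genes.

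**Figure D1:**
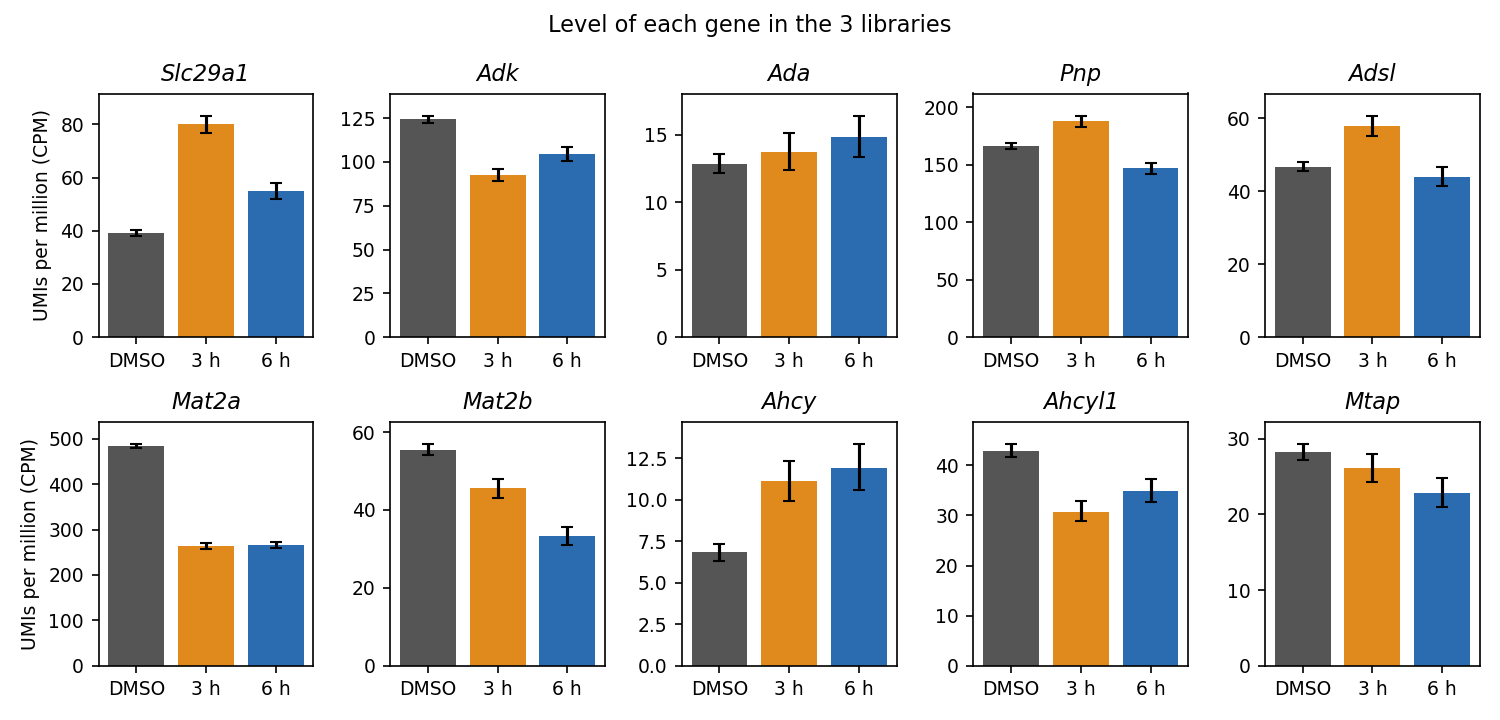
Level of each gene in CPM (bars, axes from 0) in the DMSO control, tubercidin 3 h and tubercidin 6 h libraries, 1 library each, with exact 95% Poisson intervals for counting error. Slc29a1 stands at 39.1, 80.0 and 55.0 CPM, and Mat2a at 484, 264 and 265 CPM.

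Slc29a1 (ENSMUSG00000023942, chr17:45585200-45599606, minus strand, mm10) carries adenosine and related nucleosides across the plasma membrane. It had 4105, 2392 and 1357 UMIs in the control, 3 h and 6 h libraries, or 39.1 CPM (37.9 to 40.4), 80.0 CPM (76.8 to 83.3) and 55.0 CPM (52.1 to 58.0). The 3 intervals were apart, with the control lowest and 3 h highest. The log2 ratio to the control was 1.01 at 3 h and 0.48 at 6 h, and that of 6 h to 3 h was -0.53. In its 3 h ratio Slc29a1 lay above 99.1% of the 7884 genes, and in its 6 h ratio above 89.6%. This is a larger share of a smaller total: per cell the library held 2.02, 1.01 and 0.464 Slc29a1 UMIs, and without scaling the 3 h log2 ratio turned to -0.96. The antisense gene Gm17080, which overlaps it by 2258 bases, was at 0.305 CPM or less in each library.

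Of the 6 other nucleoside transporters listed, most had few UMIs. The equilibrative Slc29a2 was at 4.34, 4.55 and 4.46 CPM, and the concentrative Slc28a1, the 1 gene of them that passed the filter, at 16.2, 17.6 and 12.6 CPM. Slc29a3, an equilibrative transporter of inner membranes, was at 5.31, 9.17 and 5.67 CPM, so that it too was highest after 3 h, with a log2 ratio of 0.69 to the control. Slc29a4 was at 3.63, 3.71 and 5.27 CPM and Slc28a3 at 1.36, 0.769 and 2.47 CPM, both highest after 6 h, and Slc28a2 had at most 1 UMI in a library. Within the pair of Slc29a1 and Slc29a2, whose ratio does not depend on scaling, Slc29a1 took 90.0% of the UMIs in the control (Clopper-Pearson 95% interval 89.1 to 90.9%), 94.6% after 3 h (93.7 to 95.5%) and 92.5% after 6 h (91.0 to 93.8%). Both treated shares lay above the control, and their own intervals overlapped slightly.

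Inside the cell adenosine meets 2 enzymes. Adk (ENSMUSG00000039197, chr14:21052574-21448569, plus strand), which phosphorylates it, was at 124 CPM in the control (122 to 126), 92.3 CPM at 3 h (88.9 to 95.8) and 105 CPM at 6 h (101 to 109). All 3 intervals were apart, and the treated libraries lay below the control, with log2 ratios of -0.43 and -0.25. Since the median gene also stood at -0.27 at 3 h, Adk was not far from it: 36.4% of genes had a lower ratio at 3 h and 39.6% at 6 h.

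Ada (ENSMUSG00000017697, chr2:163726584-163750239, minus strand), which deaminates adenosine, was at 12.9 CPM in the control (12.2 to 13.6), 13.7 CPM at 3 h (12.4 to 15.1) and 14.8 CPM at 6 h (13.3 to 16.4). Its neighbouring levels overlapped, and no difference between 3 h and the control was detectable at this depth (log2 ratio 0.09, counting interval -0.07 to 0.25). At 6 h the log2 ratio was 0.19, with a counting interval just above 0 (0.03 to 0.37). Set against each other, Adk took 90.6% of the UMIs of Adk and Ada in the control (90.1 to 91.1%), 87.1% after 3 h (85.8 to 88.2%) and 87.6% after 6 h (86.3 to 88.8%). The kinase's share was thus lower in both treated libraries by more than counting error, whichever scaling is used.

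Downstream of adenosine deaminase, Pnp (ENSMUSG00000115338, chr14:50931082-50965237, plus strand) encodes purine nucleoside phosphorylase, which cleaves inosine and guanosine. Pnp was at 166 CPM in the control (164 to 169), 188 CPM at 3 h (183 to 193) and 147 CPM at 6 h (142 to 152). The 3 h library was highest and the 6 h library lowest, with all intervals apart and log2 ratios of 0.18 and -0.18 to the control. A lower ratio was held by 83.6% of genes at 3 h and 44.8% at 6 h. Pnp2, a copy that overlaps Pnp on the same strand and is 97.2% identical to it over 1084 bases, was at 0.353, 0.134 and 0.365 CPM, and Gm49342, a second overlapping gene 99.9% identical over 722 bases, was not counted, so the level of Pnp is uncertain by the reads these copies share.

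Adsl (ENSMUSG00000022407, chr15:80948490-80970946, plus strand), the lyase that forms AMP in purine synthesis, showed the same order as Pnp. It was at 46.8 CPM in the control (45.5 to 48.1), 58.0 CPM at 3 h (55.3 to 60.8) and 43.9 CPM at 6 h (41.3 to 46.6). The 3 h library stood above the others, whereas the intervals of the control and 6 h overlapped. Adsl shares 102 bases at 95.1% identity with Sgpl1, which was at 18.9, 15.1 and 18.1 CPM. Slc29a1, Pnp and Adsl, which all stood highest at 3 h, had log2 ratios of -0.53, -0.35 and -0.39 between 6 h and 3 h, where the median gene stood at 0.14.

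Mat2a (ENSMUSG00000053907, chr6:72432799-72439558, minus strand) encodes the catalytic subunit of methionine adenosyltransferase, which makes SAM. Its RNA is known to be controlled by SAM itself: the methyltransferase METTL16 binds hairpins in its 3′ UTR that carry the letters TACAGAGAA or TACAGAAAA, methylates an adenosine there, and affects the splicing and stability of the transcript. Those sites are shown because they mark Mat2a out among the genes described here. The annotated transcript Mat2a-201 held 6 of them, all in its 3′ UTR. Each is given with its flanks as DNA, 5′ to 3′ on the minus strand, with the 9 bases of the motif in capitals.
site 1: tggcgtaggtTACAGAGAAgccttcaagc
site 2: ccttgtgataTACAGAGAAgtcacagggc
site 3: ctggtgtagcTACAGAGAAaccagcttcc
site 4: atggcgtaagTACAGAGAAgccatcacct
site 5: caaggtgtccTACAGAAAAaccttgggtt
site 6: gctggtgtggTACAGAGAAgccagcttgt

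The sites lie at chr6:72434235-72434263, chr6:72433451-72433479, chr6:72433272-72433300, chr6:72433157-72433185, chr6:72433046-72433074 and chr6:72432938-72432966 (mm10, GENCODE M21), in that order. They begin between 1455 and 158 bases before the transcript's end. Of 21901 protein-coding genes, searched on the sense strand of their longest coding transcript, 7.47% held at least 1 such motif and 0.0776% at least 3. Mat2a was the 1 gene with 5 or more. Among the other 9 genes described here, Ada held 1 and the rest 0. A match of letters is a description of the sequence and does not show binding or methylation.

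The Mat2a level in the control was 484 CPM (480 to 488), against 264 CPM (258 to 270) at 3 h and 265 CPM (259 to 272) at 6 h, from 50790, 7880 and 6547 UMIs. Both treated libraries lay far below the control and overlapped each other. The log2 ratio was -0.87 at either time, and 9.12% of genes had a lower ratio at 3 h and 6.94% at 6 h. Mettl16, the methyltransferase that acts on the sites above, was at 155, 161 and 189 CPM, so its own share was not lower in the treated libraries. Nearest to Mat2a in the plane of both ratios, over 3 libraries, were Mitd1 (42.6, 23.0 and 22.9 CPM), Prkrip1 (64.7, 34.3 and 34.7 CPM) and Ccdc88a (78.8, 42.3 and 42.0 CPM), at Euclidean distances of 0.015, 0.023 and 0.026 on the log2 scale. Gm9523, an uncounted processed pseudogene 95.6% identical to Mat2a over 1164 bases, could share some of its reads.

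Mat2b (ENSMUSG00000042032, chr11:40679314-40695203, minus strand) was at 55.4 CPM in the control (54.0 to 56.9), 45.5 CPM at 3 h (43.1 to 48.0) and 33.3 CPM at 6 h (31.1 to 35.7). In CPM the 3 intervals were apart and followed the time. The step from the control to 3 h depended on scaling. Its log2 ratio was -0.28 in CPM, beside -0.27 for the median gene, and 49.2% of genes had a lower ratio. With median-of-ratios factors it was -0.04 and with TMM factors -0.09. At 6 h 11.3% of genes had a lower ratio than Mat2b. Mat2b had a log2 ratio of -0.44 between 6 h and 3 h (counting interval -0.58 to -0.33) where that of Mat2a was 0.01 (-0.04 to 0.06). Mat2a took 89.7% of the UMIs of both subunits in the control (89.5 to 90.0%), 85.3% after 3 h (84.5 to 86.0%) and 88.9% after 6 h (88.1 to 89.6%). The 3 h share lay below the others, and the interval at 6 h overlapped the control's slightly.

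**Figure D2:**
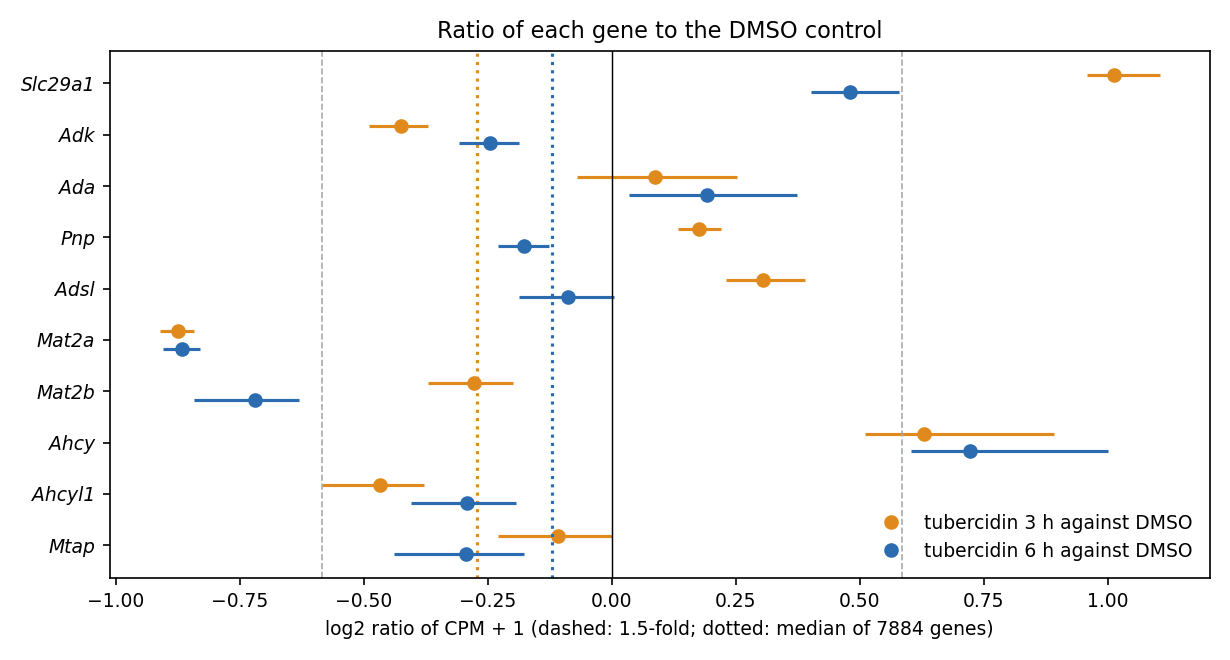
Log2 ratio of CPM + 1 to the DMSO control for each gene (points) at 3 h and 6 h; the lines are exact 95% conditional binomial intervals of the ratio without the pseudocount, and cover counting error only. Past the dashed 1.5-fold lines lie Slc29a1 at 3 h (1.01), Mat2a at both times (-0.87) and Mat2b at 6 h (-0.72). Ahcy, which missed the mean of 10 CPM, also lies past them at 3 h (0.63) and 6 h (0.72). The dotted lines mark the median of 7884 genes (-0.27 at 3 h, -0.12 at 6 h).

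After the methyl group has been passed on, Ahcy (ENSMUSG00000027597, chr2:155059310-155074497, minus strand) hydrolyses S-adenosylhomocysteine into homocysteine and adenosine. Ahcy had few UMIs, 716, 332 and 294, or 6.83 CPM in the control (6.34 to 7.34), 11.1 CPM at 3 h (9.94 to 12.4) and 11.9 CPM at 6 h (10.6 to 13.4). The treated libraries overlapped each other and lay above the control, with log2 ratios of 0.63 and 0.72. This level is uncertain. Gm4737 is 99.7% identical to Ahcy over 2083 of the 2543 bases of its transcript, and was counted separately at 5.74, 4.25 and 5.67 CPM. The pseudogene Gm9826, 99.2% identical over 1299 bases, was not counted. Summed with Gm4737, a choice made after the values were seen, the log2 ratios were 0.27 after 3 h (0.13 to 0.44) and 0.45 after 6 h (0.32 to 0.64), under 1.5-fold. The antisense gene Gm45609, which overlaps Ahcy by 317 bases, was counted at 2.44, 1.44 and 1.26 CPM. How many Ahcy molecules were lost or split between these copies was not tested.

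Ahcyl1 (ENSMUSG00000027893, chr3:107663118-107696560, minus strand) encodes a relative of Ahcy that binds the inositol trisphosphate receptor and is not known to hydrolyse S-adenosylhomocysteine. It stood at 43.0 CPM in the control (41.7 to 44.2), 30.8 CPM at 3 h (28.8 to 32.8) and 34.9 CPM at 6 h (32.6 to 37.3). It thus lay on the other side of the control from Ahcy, with the treated intervals overlapping slightly. Ahcy took 13.7% of the UMIs of both in the control (12.8 to 14.7%), 26.5% after 3 h (24.1 to 29.1%) and 25.4% after 6 h (22.9 to 28.0%). The pair of Ahcy with Adk, which removes the adenosine that Ahcy releases, uses the same Ahcy counts and is not a second observation. Adk took 94.8% of the UMIs of Adk and Ahcy in the control (94.4 to 95.2%), 89.3% after 3 h (88.1 to 90.3%) and 89.8% after 6 h (88.6 to 90.9%). Both shifts carry the uncertainty of the Ahcy counts, and neither was recomputed with Gm4737 added.

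Mtap (ENSMUSG00000062937, chr4:89137122-89181081, plus strand) salvages adenine and methionine from methylthioadenosine, the by-product of polyamine synthesis. It was at 28.3 CPM in the control (27.2 to 29.3), 26.1 CPM at 3 h (24.3 to 28.0) and 22.9 CPM at 6 h (21.0 to 24.8). Neighbouring libraries overlapped, and only the 6 h library lay clear of the control. Its 3 h log2 ratio of -0.11 turned to 0.12 with median-of-ratios factors. Against Pnp, a phosphorylase of the same family, Mtap took 14.5% of the UMIs of both in the control (14.0 to 15.0%), 12.2% after 3 h (11.4 to 13.0%) and 13.5% after 6 h (12.4 to 14.5%).

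**Figure D3:**
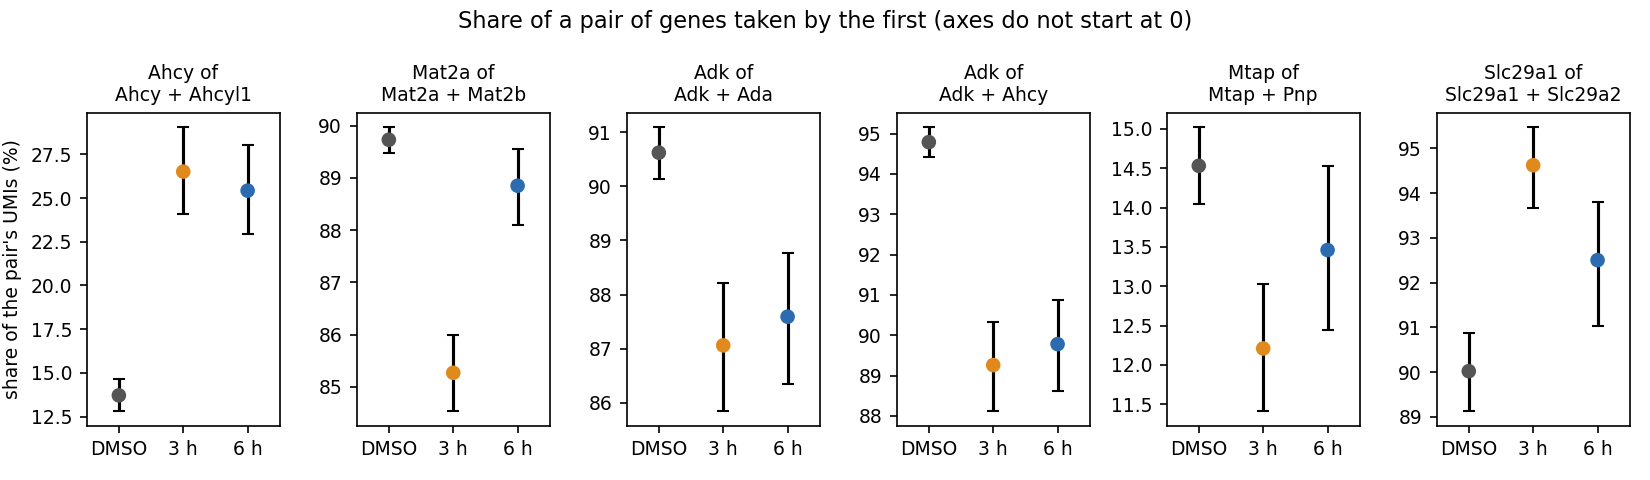
Share of the UMIs of a pair of genes taken by the first, in % (axes do not start at 0), in each of the 3 libraries, with Clopper-Pearson 95% intervals for counting error. These shares do not depend on how libraries are scaled: Ahcy goes from 13.7% of Ahcy and Ahcyl1 in the control to 26.5% and 25.4%, and Slc29a1 from 90.0% of its pair to 94.6% and 92.5%. The Ahcy shares carry the uncertainty from its near-identical copy Gm4737, whose UMIs were not added.

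The same UMIs were also described cell by cell, with every cell thinned to 4000 UMIs. These shares restate the levels above and are not separate support for them. Too shallow for this were 122 cells of the 3 h library and 284 of the 6 h library. At this depth a Slc29a1 UMI was found in 14.7% of control cells (13.2 to 16.3%), 26.9% after 3 h (25.1 to 28.8%) and 18.96% after 6 h (17.5 to 20.5%). A Mat2a UMI was found in 84.5% (82.9 to 86.1%), 62.6% (60.6 to 64.6%) and 63.7% (61.9 to 65.6%). Without thinning, where the control cells are deeper, the shares were 80.7, 57.4 and 34.6% for Slc29a1, so that the order turned, while Mat2a was found in 2030 of 2031 control cells and in 90.4 and 82.3% of the treated ones.

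For Mat2b the thinned shares were 19.1% (17.5 to 20.9%), 16.6% (15.1 to 18.2%) and 11.4% (10.2 to 12.6%), against 37.3, 29.7 and 31.9% for Adk. Ahcy was found in 3.05% (2.35 to 3.90%), 5.13% (4.25 to 6.12%) and 5.07% (4.27 to 5.98%) of thinned cells, and Ada in 5.27, 5.31 and 5.41%. Thinned cells held on average 4.002, 3.25 and 2.91 UMIs of the 10 genes together, and cells with none of them made up 2.12% (1.54 to 2.84%), 5.44% (4.54 to 6.46%) and 6.43% (5.53 to 7.44%). Mat2a alone made up 1.93, 1.08 and 1.05 of these UMIs per cell. The lower sums in the treated libraries are thus mostly Mat2a and are not read as a loss across the 10 genes.

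**Figure D4:**
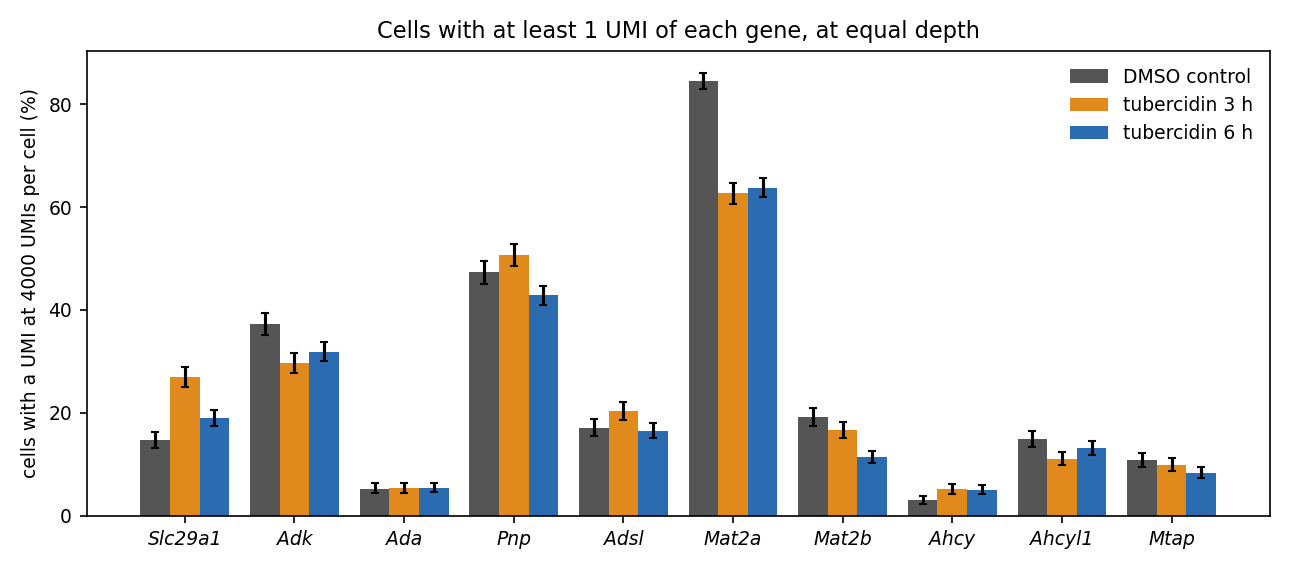
Percent of cells with at least 1 UMI of each gene after thinning every cell to 4000 UMIs (bars, axis from 0), for 2031 control cells, 2243 cells at 3 h and 2642 at 6 h, with Clopper-Pearson 95% intervals. Slc29a1 was found in 14.7, 26.9 and 18.96% of cells and Mat2a in 84.5, 62.6 and 63.7%.

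Within a library Mat2a and Slc29a1 varied little with the total UMIs of a cell. Cells of each library were split into 3 equal parts by total UMIs. Mat2a was at 473, 480 and 492 CPM in the lowest, middle and highest part of control cells, at 266, 248 and 272 CPM at 3 h, and at 252, 261 and 273 CPM at 6 h. Each part of the treated libraries therefore lay below each part of the control. Slc29a1 was at 40.4, 38.3 and 39.1 CPM in the parts of the control, 80.7, 80.4 and 79.5 CPM at 3 h and 59.5, 55.1 and 53.1 CPM at 6 h, again without overlap between libraries. Over all 10 genes and 3 libraries, the log2 ratio of the lowest to the highest part ran from -0.29 (Mat2b in the control) to 0.29 (Ahcy at 3 h). Mat2b in the control was at 49.9 CPM (47.1 to 52.9) in the lowest part and 61.1 CPM (58.9 to 63.3) in the highest. That gap was about as large as the log2 ratio of Mat2b at 3 h to the control (-0.28). Mat2a intervals in the control were also apart, at 464 to 482 CPM in the lowest part and 486 to 499 CPM in the highest. At 3 h those of its middle part (238 to 258 CPM) and highest part (264 to 281 CPM) were apart. Intervals of parts were apart for other genes as well, among them Adk in the control and Ahcyl1 at 6 h.

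Free RNA, measured in barcodes ranked by UMIs below the cells, also held these transcripts. Slc29a1 was at 36.9, 68.8 and 57.3 CPM there and Mat2a at 350, 154 and 203 CPM, in the order control, 3 h, 6 h. The Mat2a levels lay below those of the cells in each library. In free RNA as in cells, Mat2a was highest and Slc29a1 lowest in the control. A cell type that lacks these genes was not present as a reference for background. Subtracting this profile at 10% of the UMIs of the cells gave log2 ratios of 1.05 at 3 h and 0.47 at 6 h for Slc29a1, and of -0.83 and -0.87 for Mat2a.

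The wider pathways are described beside the shares of all 7884 genes, 3.61% higher and 24.5% lower at 3 h and 7.06% and 16.9% at 6 h. Of purine synthesis all 11 listed genes passed the filter, 0 were higher, and 1 was lower at each time: Pfas, which carries out an early step of the ring's assembly, with a log2 ratio of -0.73 at 3 h, and Paics, which acts just before Adsl, with -0.60 at 6 h. The list medians were -0.25 and -0.23.

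Of 24 genes of purine salvage and nucleotide conversion 14 passed. At 3 h, where 24.5% of all genes were lower, 0 were higher and 2 lower, Guk1 (guanylate kinase, -0.77) and Adal (an adenosine deaminase-like enzyme, -0.75). At 6 h, beside 7.06% higher and 16.9% lower of all genes, 1 was higher, the adenylate kinase Ak1 (0.60), and 4 were lower, among them Adal (-0.74) and Dguok, which phosphorylates deoxyguanosine (-0.62). The list medians were -0.23 and -0.12. The 4 adenosine receptors did not pass the filter, and Adora2b, at 1.21, 0.636 and 0.243 CPM, was the highest of them in the control.

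Among 25 genes of the methionine, folate and polyamine cycles 21 passed. At 3 h, beside 3.61% higher and 24.5% lower of all genes, Shmt2, the mitochondrial enzyme that moves a carbon from serine to folate, was higher (0.59), and 3 genes were lower: Mtrr, which reactivates methionine synthase (-0.85), Ahcyl2, the near relative of Ahcyl1 (-0.81), and Cth, which makes cysteine from cystathionine (-0.69). At 6 h, beside 7.06% and 16.9%, Adi1 of the methionine salvage route that follows Mtap was higher (0.73), while Cth (-1.32), Mthfd2 of mitochondrial folate metabolism (-0.90) and Mtrr (-0.70) were lower. Cth was at 92.2, 56.7 and 36.2 CPM, in the order of the libraries, and Adi1 at 33.7, 41.7 and 56.6 CPM. The list medians were -0.15 and -0.01. None of these shares is read as particular to a pathway. Mat1a, the SAM synthetase gene of liver, had 0 UMIs in each library, which allows up to 0.0286, 0.100 and 0.122 CPM at a floor of 3 counts.

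**Figure D5:**
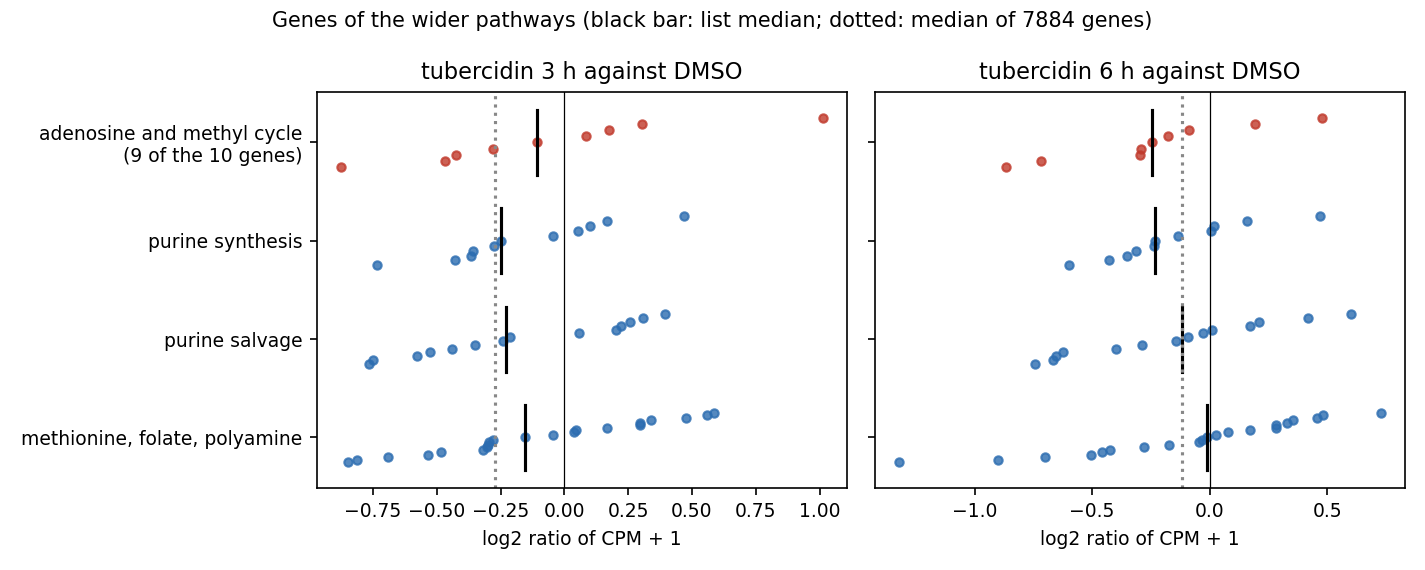
Log2 ratio of CPM + 1 at 3 h and 6 h to the DMSO control for genes that averaged 10 CPM or more (points, spread vertically by rank): 9 of the 10 genes described here, 11 of purine synthesis, 14 of purine salvage and nucleotide conversion, and 21 of the methionine, folate and polyamine cycles. Black bars are list medians and the dotted line is the median of 7884 genes; the methionine, folate and polyamine list reaches lowest at 6 h, with Cth at -1.32.

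Between the treated libraries, 0 of the 9 genes reached 1.5-fold, against 8.51% higher and 1.67% lower of the 7884 genes. Slc29a1 (-0.53), Mat2b (-0.44), Adsl (-0.39), Pnp (-0.35) and Mtap (-0.19) were lower at 6 h than at 3 h in log2 ratio, each with a counting interval below 0. The signs for Adk (0.18), Ahcyl1 (0.18), Ada (0.11), Ahcy (0.09) and Mat2a (0.01) turned negative with median-of-ratios or TMM factors, so no direction is given for these.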

How the data were processed

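Single-cell libraries of 3 groups were measured by 10x Genomics 3′ v3 barcoding, 1 library each. The deposited files hold unnormalised UMI counts for each gene in each barcode. Per the file headers the authors ran Cell Ranger 7.1.0, on mm10 per the submitters' processing notes; the annotation and the counting of intronic reads are not given in the sources used here. The barcode and gene lists hold names and no score or measurement. A barcode was taken as a cell when its UMIs reached 0.1 of the 99th percentile among the top 3000 barcodes, with 500 or more genes and no more than 20% mitochondrial UMIs, which set minimums of 11034, 2961 and 2107 UMIs. Doublets were kept and cells were not clustered. Cells held 104892739, 29892000 and 24681924 UMIs in the control, 3 h and 6 h. Sums were scaled to CPM and compared as log2 ratios of CPM + 1. Intervals of ratios are exact conditional binomial, without the pseudocount. Intervals cover counting error only.

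All 10 genes and, by size, genes of lists were named. A gene that this rule would name is not reported here. Genes and lists were chosen with earlier results of these data known. Alternatives covered cells, scaling (TMM from edgeR 4.0.16, R 4.3.3), free RNA, thinning, pseudocount and filter. Computation (Python 3.11.15, numpy 2.4.6, scipy 1.17.1, pandas 2.3.3) was tested on simulated data. Positions, overlaps, copies (blastn, at least 100 bases at 95% identity) and motif sites came from GENCODE M21 (GRCm38, which mm10 is). Protein sequences were not used here.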

Additional observations from a re-analysis of the deposited data

Results flagged for a closer look

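Pnp, the purine nucleoside phosphorylase gene, lay on opposite sides of the control at the 2 times: its log2 ratio was 0.18 at 3 h (counting interval 0.13 to 0.22) and -0.18 at 6 h (-0.23 to -0.13). The difference between the times was not tested against replicates, and the signs were the same under all 11 alternatives other than UMIs per cell, which gave -1.83 and -2.74. At 6 h Pnp lay near the median gene (-0.12), and 44.8% of genes had a lower ratio. At 3 h 83.6% of genes had a lower ratio.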

How the results depend on the processing

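No paired analysis was possible because each group has 1 library. The median log2 ratio of the genes that passed the filter was -0.11 at 3 h. It moved to -0.0045 without mitochondrially encoded genes, -0.028 after thinning and -0.011 with a mean of at least 1 CPM. Median-of-ratios factors gave 0.22 and TMM factors 0.17. All of these settings let Ahcy pass, so each move includes the added gene. With all 10 genes and the main scaling the median was -0.011. With UMIs per cell, where Ahcy did not pass, the median was -1.98. At 6 h it was -0.25 and moved to -2.71 with UMIs per cell. Between 6 h and 3 h it was -0.19 and moved to -0.31, -0.31 and -0.64 with median-of-ratios factors, TMM factors and UMIs per cell. The genes past 1.5-fold numbered 2 at 3 h and 9 with UMIs per cell. At 6 h they numbered 2, 9 with UMIs per cell and 1 with a mean of at least 50 CPM. At both times they numbered 3, with Ahcy added, under each setting that let Ahcy pass. Between 6 h and 3 h they numbered 0, 3 with median-of-ratios factors, 3 with TMM factors (Mat2b, Slc29a1 and Adsl) and 5 with UMIs per cell. UMIs per cell, which add any difference in depth to a ratio, reversed Slc29a1 at 3 h (-0.96) and Ahcy at 3 h (-1.07) and 6 h (-1.41). Median-of-ratios and TMM factors shifted the median gene by 0.23 and 0.19 at 3 h. Under the other 11 alternatives Slc29a1 at 3 h stayed between 0.96 and 1.25, Mat2a between -0.90 and -0.63 at 3 h and -0.90 and -0.85 at 6 h, and Mat2b at 6 h between -0.81 and -0.66. Depth limits Ahcy and Ada most, with 294 and 366 UMIs at 6 h.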
